A study of Mus musculus with 15 samples.

Results

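The 10 genes described here mark successive states of the spermatogonium, the mitotic germ cell at the base of the seminiferous tubule: Gfra1, Zbtb16, Sall4, Etv5 and Id4, which are known for stem cell maintenance, Dmrt1, Sohlh1 and Sohlh2, which are transcription factors of the spermatogonial programme, and Kit and Stra8, which are known for differentiation and for commitment to meiosis. They were picked by symbol from what the genes are known for, with earlier results of these data known, and are 10 of the 32285 genes listed in each matrix. Their levels were followed by cell stage and by treatment group, with spermatogonia-like cells at the centre.

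The study asked how JQ1, a small-molecule inhibitor of the BET bromodomain proteins that include the testis protein BRDT, changes spermatogenesis and whether the change reverses. Single-cell RNA-seq libraries were made from the testes of male DBA/2J mice, 3 libraries in each of 5 groups. T mice received JQ1 at 50 mg/kg daily for 3 wk and were sampled at the end, at 10 wk of age, and VC-T mice received the vehicle, DMSO diluted in a cyclodextrin solution, for the same time. R mice were sampled at 16 wk of age, 6 wk after the last JQ1 dose, with vehicle mice of the same age as VC-R. UC mice, 15 wk old, received neither, and served as the shared control of the T and R comparisons below. The ages of T and UC mice therefore differed, and drug and age cannot be told apart in that comparison. All 15 libraries are whole-testis suspensions, with no sort and no transgene.

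In the seminiferous epithelium, stem spermatogonia respond to glial cell line-derived neurotrophic factor from Sertoli cells through the receptor complex of GFRA1 and RET, and ETV5 and ID4 act within this self-renewing state. ZBTB16 (also called PLZF) and SALL4 are nuclear factors of undifferentiated spermatogonia. Retinoic acid moves these cells into differentiation, when KIT, the receptor for Kit ligand, is gained, and later induces STRA8 and entry into meiosis. SOHLH1 and SOHLH2 are helix-loop-helix factors of the differentiating state, and DMRT1 is a DM-domain factor present throughout the spermatogonial stages and in Sertoli cells.

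Promoter sequences are shown for Sohlh1 and Stra8 because these are the members whose levels differed most between groups in germ cells after the spermatogonial stage, described further below. Each line gives the 250 bases before the RefSeq transcription start, 5′ to 3′ on the strand of the gene. In Sohlh1 (chr2:25847249-25847498, GRCm38.p6, minus strand) the capitals mark CACGTG, an E-box of the kind bound by helix-loop-helix factors, whose letters read the same on both strands. In Stra8 (chr6:34920698-34920947, GRCm38.p6, plus strand) the capitals mark AGGTCA, the hexamer recognised by nuclear receptors, which include the retinoic acid receptors. Both strands were searched.
Sohlh1: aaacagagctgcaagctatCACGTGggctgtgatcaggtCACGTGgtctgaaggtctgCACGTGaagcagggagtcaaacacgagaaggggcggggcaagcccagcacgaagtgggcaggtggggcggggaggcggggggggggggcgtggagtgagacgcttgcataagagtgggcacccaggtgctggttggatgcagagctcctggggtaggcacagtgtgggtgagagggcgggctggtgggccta
Stra8: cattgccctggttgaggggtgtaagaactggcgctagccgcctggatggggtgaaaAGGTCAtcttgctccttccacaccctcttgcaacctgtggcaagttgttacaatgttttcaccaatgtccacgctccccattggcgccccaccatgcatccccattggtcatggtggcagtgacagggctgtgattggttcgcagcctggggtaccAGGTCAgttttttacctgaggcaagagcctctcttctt

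The Sohlh1 window held 3 CACGTG motifs, starting 231, 211 and 192 bases before the start, a number reached by 20 of 32851 windows of the same length (0.0609%), while at least 1 was present in 6.02% of them. It also held 1 AGGTCA, 215 bases before the start, which overlaps the middle CACGTG. The Stra8 window held 2 AGGTCA motifs, 194 and 38 bases before the start, as did 446 of 32851 windows with at least 2 (1.36%), and 14.0% had at least 1. These are matches of letters and were not tested as sites. In the GENCODE annotation of GRCm38, Sohlh1 lies on chromosome 2 from 25842995 to 25847248 on the minus strand, and Stra8 on chromosome 6 from 34920163 to 34939344 on the plus strand, with an earlier annotated start than that of RefSeq. Promoter entries were found for 7 of the 10 members.

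The cells were identified without the members. Cells with at least 500 genes and 1000 unique molecular identifiers (UMIs, which count captured RNA molecules) and under 30% mitochondrial UMIs were clustered on variable genes from which the 10 members had been removed, and clusters were named by marker genes that include no member. Library totals were 9673587 to 98724984 UMIs, and 2430 to 12744 cells were kept per library. Pairs of libraries shared at most 46 cell barcodes, at most 0.554% of the smaller library. The library labelled VC-T 1 had no spermatozoa-like cells, like the T libraries with 0 to 2, whereas UC libraries had 1634 to 2086. It went against its label, the study left it out of its tests of gene expression, and it is left out of the tests below unless stated.

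The spermatogonia-like cluster held 2133 cells. Within it, 410 cells formed sub-clusters whose leading genes are expressed in later germ cells, and they made up 6.86% to 20% of the cluster in UC, 4.25% to 26.1% in T and 41.8% to 77.4% in R libraries. These cells were left out, by a rule made after the data were seen, which leaves 1723 spermatogonia-like cells. UC libraries had 32, 95 and 127 of them, T libraries 277, 248 and 186, and R libraries 32, 38 and 21. All 11 spermatogonial markers were detected, and their summed level was 2152 to 2316 CPM (UMIs scaled to the same total in every sum) in UC, 2100 to 2196 CPM in T and 1900 to 2084 CPM in R libraries. The cluster was named by these same markers, so the sums describe it and are no separate test of the name. Sertoli markers summed to at most 93.3 CPM, myoid markers to at most 84.7 CPM, endothelial markers to at most 82.4 CPM, Leydig markers to at most 18.0 CPM and macrophage markers to at most 9.0 CPM, with the macrophage marker Pf4 at 0 in every library. Transcripts of the latest germ cells, which can reach other cells as free RNA, summed to 5495 to 7449 CPM in UC, 492 to 1102 CPM in T, 1081 CPM in VC-T 1 and 8073 to 9373 CPM in R libraries. Spermatid markers summed to 108 to 163 CPM in UC, 221 to 338 CPM in T and 216 to 229 CPM in R libraries. Late spermatocyte markers summed to 143 to 218 CPM in UC, 225 to 315 CPM in T and 144 to 193 CPM in R libraries. The part of all these transcripts in the results was not tested.

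The members had distinct levels across 6 sub-clusters of the spermatogonia-like cells, which were made without the members and named by marker genes where these allowed. A sub-cluster of 366 cells led by Kcnc2, Ret and Glis3 carried undifferentiated markers, and Gfra1, Zbtb16, Sall4, Etv5 and Id4 had their highest spermatogonial levels there. A sub-cluster of 347 cells led by Nkain3, Hist1h2ae and Ephb2, which met no marker definition and so has no place in an order of stages, had the highest Kit, Stra8, Sohlh1 and Sohlh2. The other sub-clusters were differentiating-like (402 and 146 cells) and preleptotene-like (267 and 195 cells, the larger led by histone genes and the smaller by Prss50, Prdm9 and Rec8). The sub-cluster of 402 cells, led by Zfp286os, Pacsin1 and Adam3, was named on weak grounds. Its markers had a mean log2 ratio of 0.12 to the other spermatogonia-like cells, against 2.01 for the undifferentiated-like sub-cluster. These levels are from all libraries summed, and for some members the order differed between libraries. They are descriptions with no test, since sub-clusters are defined by the RNA of the same cells. Levels are given as CPM, and because the 3′ assay counts molecules by their ends, gene length does not enter.

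**Figure D1:**
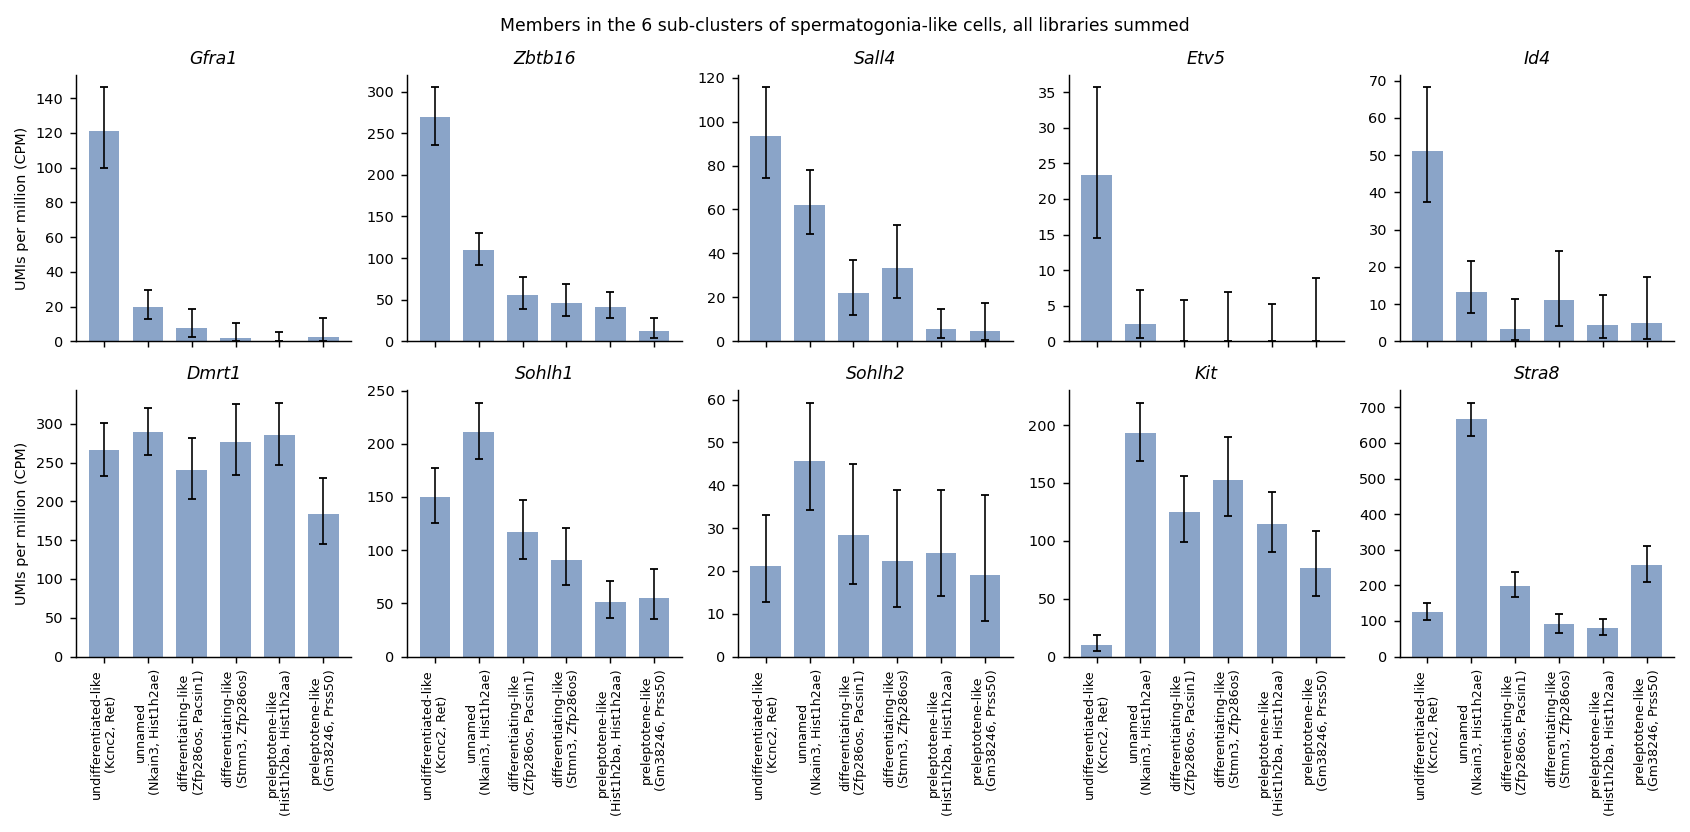
Level in CPM of the 10 members in the 6 sub-clusters of spermatogonia-like cells, all libraries summed; bars are the level and error bars the 95% Poisson interval, which covers counting error only. Gfra1, Zbtb16, Sall4, Etv5 and Id4 are highest in the undifferentiated-like sub-cluster on the left of each panel, Kit is low there and higher in every other sub-cluster, and Dmrt1 stays between 184 and 289 CPM throughout.

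Gfra1, the GDNF co-receptor, was highest in undifferentiated-like cells. It was at 121 CPM (109 UMIs, 95% Poisson interval 99.5 to 146) in undifferentiated-like cells, 19.9 CPM in the unnamed sub-cluster and 7.90 CPM or less in the other 4, with no UMI in the histone-led preleptotene-like cells, where a count of 0 allows up to 4.28 CPM. In each of the 9 libraries with at least 10 cells of both, Gfra1 was higher in undifferentiated-like than in unnamed cells.

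Zbtb16, the PLZF gene, was also highest in undifferentiated-like cells but was found in every sub-cluster. Its level was 269 CPM in undifferentiated-like cells, 109 CPM in the unnamed sub-cluster, 55.3 and 46.5 CPM in differentiating-like cells and 41.4 and 12.0 CPM in preleptotene-like cells. Sall4 was at 93.4 CPM in undifferentiated-like cells, 62.1 CPM in unnamed cells and 4.79 CPM in the Prdm9-led cells. Etv5, an ETS factor downstream of GDNF, was sparse, with 21 UMIs (23.4 CPM) in undifferentiated-like cells, 3 UMIs in unnamed cells and none in the other 4 sub-clusters. Id4 reached 51.2 CPM in undifferentiated-like cells and at most 13.3 CPM elsewhere among spermatogonia-like cells.

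Kit was lowest where Gfra1 was highest. It stood at 10.0 CPM in undifferentiated-like cells and 193 CPM in the unnamed sub-cluster, and in none of the 9 libraries with both was it higher in the undifferentiated-like cells. The other sub-clusters held 76.6 to 153 CPM. Against the smaller differentiating-like sub-cluster, at 153 CPM, Kit was higher in unnamed cells in only 4 of 8 libraries. Stra8 was at 125 CPM in undifferentiated-like cells, 666 CPM in unnamed cells, 199 and 91.1 CPM in differentiating-like cells, 81.3 CPM in the histone-led preleptotene-like cells and 256 CPM in the Prdm9-led ones. It was higher in unnamed than in undifferentiated-like cells in 9 of 9 libraries.

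The 3 transcription factors of the general programme were broader. Dmrt1 ranged only from 184 to 289 CPM over the 6 sub-clusters. Sohlh1 was highest in unnamed cells at 211 CPM, against 150 CPM in undifferentiated-like cells and 51.3 to 117 CPM in the other 4. Sohlh2 ranged from 19.1 to 45.6 CPM and was also highest in unnamed cells, where its counting interval (34.3 to 59.3 CPM) lay above that of undifferentiated-like cells (12.7 to 33.0 CPM). It overlapped that of the larger differentiating-like sub-cluster (16.9 to 45.0 CPM), and unnamed cells were the higher of these in 5 of 8 libraries.

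Per cell, the members were detected sparsely. Dmrt1 had a UMI in 41.7% of the 1723 spermatogonia-like cells, Stra8 in 28.7%, Sohlh1 in 23.5%, Kit in 21.3% and Zbtb16 in 18.5%. Sall4 was found in 8.71%, Sohlh2 in 6.85%, Gfra1 in 5.28%, Id4 in 3.77% and Etv5 in 1.16%. In spermatozoa-like cells, taken as a comparison level, the shares were 0.130%, 0.0537%, 0.707%, 0.765%, 0.295%, 0 of 22351 cells (which allows up to 0.0134%), 0.327%, 2.67%, 5.29% and 0.846% in the same order. Free RNA and RNA kept from earlier stages cannot be told apart in those cells. The Id4 share lay below that level and the Etv5 share close to it, so neither is read as the share of expressing cells. Median depth was 1727 UMIs in spermatogonia-like and 3300 UMIs in spermatozoa-like cells. With each cell thinned to 2000 UMIs, 705 spermatogonia-like cells remained (143 UC, 246 VC-T, 142 T, 91 VC-R and 83 R), and the shares were 43.3% for Dmrt1, 34.0% for Stra8, 17.7% for Kit, 20.1% for Zbtb16, 4.96% for Gfra1 and 3.69% for Id4, the last against 2.58% of thinned spermatozoa-like cells.

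Outside the spermatogonia the members parted ways, as the map of mean levels by class shows. Sall4 was nearly confined to spermatogonia-like cells, at 46.7 ± 21.1 CPM (SD, n = 15 libraries), with a single UMI in all early spermatocyte-like cells. Stra8 and Sohlh2 were also present in early spermatocyte-like cells (leptotene and zygotene). Stra8 had a median over libraries of 283 CPM there and 285 CPM in spermatogonia-like cells, and over all cells summed it had 199 and 285 CPM. Its mean in early spermatocyte-like cells, 453 ± 470 CPM (n = 15), was drawn up by T 1, T 2 and VC-T 1. Sohlh2 was at 45.2 ± 21.0 CPM (n = 15) in early spermatocyte-like and 33.1 ± 12.2 CPM in spermatogonia-like cells, within the spread between libraries. Zbtb16, at 113 ± 32.8 CPM in spermatogonia-like cells, had 1 UMI in early spermatocyte-like cells but 38.0 ± 30.05 CPM in Leydig-like cells (n = 10).

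Kit was also present in Leydig-like cells, at 73.7 ± 40.8 CPM (n = 10), against 121 ± 31.6 CPM in spermatogonia-like cells. Etv5 had its highest mean level in a somatic cluster. It reached 72.3 ± 35.9 CPM (n = 11) in the Clu-led Sertoli-like cluster, 26.4 ± 29.1 CPM in Leydig-like cells and 11.9 ± 2.26 CPM in spermatid-like cells (n = 15), against 5.58 ± 5.66 CPM in spermatogonia-like cells. Dmrt1 stood at 275 ± 46.6 CPM in spermatogonia-like cells and 64.9 ± 21.0 CPM (n = 11) in the same Sertoli-like cluster.

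Id4 was higher in later germ cells than in spermatogonia-like cells. Its highest level, 209 ± 24.3 CPM (n = 15), was in an unnamed germ cell cluster led by Maz, Adad2 and Tex12, followed by late spermatocyte-like cells at 94.1 ± 12.0 CPM and early spermatocyte-like cells at 68.7 ± 35.3 CPM. The last pair overlapped across libraries. Spermatogonia-like cells as a whole had 16.2 ± 8.08 CPM, well under the 179 CPM of the lowest library in the Maz-led cluster. An antisense gene, A330033J07Rik, and Gm49291 overlap Id4 on the other strand, and the 3′ assay keeps strand.

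**Figure D2:**
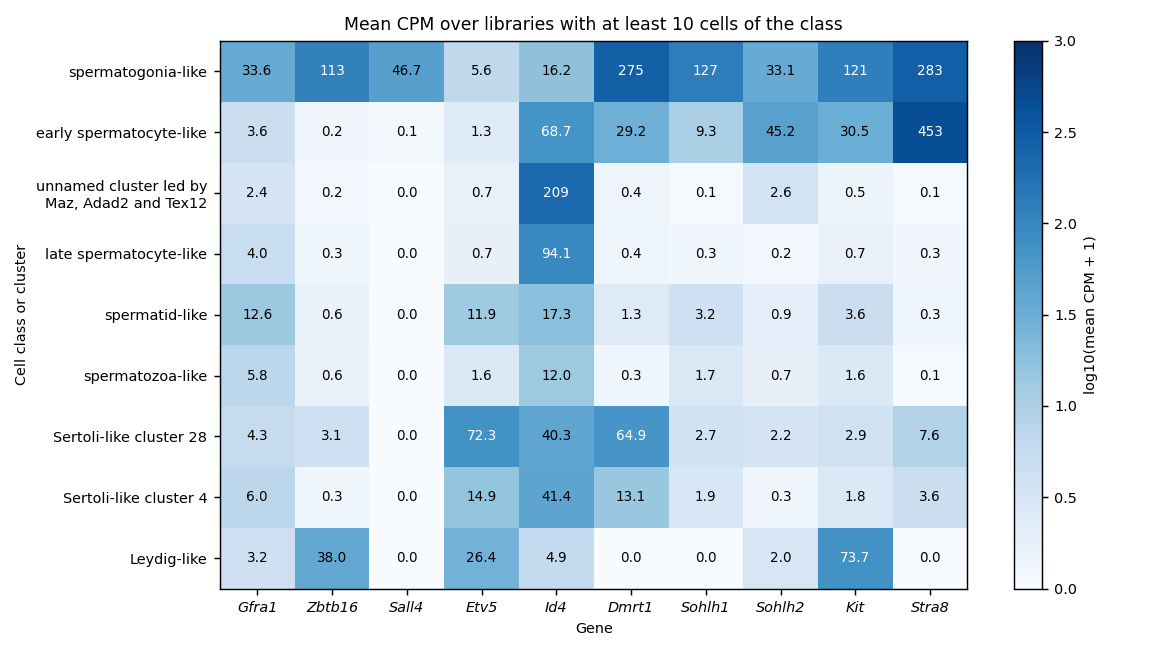
Mean CPM of the 10 members in germ cell classes and in Sertoli-like and Leydig-like cells, over the libraries with at least 10 cells of the class; colour is log10(mean CPM + 1) and the numbers are the means. Sall4, Zbtb16 and Sohlh1 are concentrated in the spermatogonia-like row, Stra8 is also present in early spermatocyte-like cells (mean 453 CPM, median 283 CPM), Id4 is highest in the Maz-led cluster at 209 CPM, and Etv5 in the Clu-led Sertoli-like cluster (28) at 72.3 CPM.

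The genes most like each member were found by Pearson correlation of log2 CPM over 107 class-by-library sums from 9 classes and 12924 genes. The sums share libraries and cell classes, so the coefficients are descriptions. Stra8 was closest to Esco2 (r = 0.95), Map7d2 (0.94) and Clspn (0.94), genes with known roles in cohesion, microtubules and replication. Sall4 was closest to Zfp286os (0.88), Sohlh1 (0.84) and Rpl32 (0.84). Sohlh1 was closest to Igf2bp1 (0.87), Ccna2 (0.82) and Unc5d (0.81), Sohlh2 to Map7d2 (0.85), Trap1a (0.83) and Gm364 (0.83), and Dmrt1 to Med12l (0.84), D10Wsu102e (0.83) and Mpped2 (0.82). Zbtb16 was nearest to the ribosomal protein genes Rpsa (0.83) and Rps18 (0.79), and Kit to Rps18 (0.78), Bnc2 (0.76) and Nexmif (0.75). Gfra1 had the weakest neighbours, Gabrg3 (0.67), St6galnac3 (0.67) and Myh6 (0.64). Etv5 was nearest to Ccdc160 (0.77), Sobp (0.75) and Prr15 (0.73), and Id4 to Gm10069 (0.82), Ccdc114 (0.80) and Tcam1 (0.78).

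To ask whether JQ1 altered the members in spermatogonia, the UMIs of spermatogonia-like cells were added up in each library, and all genes that passed the filter were tested with the quasi-likelihood model of edgeR and Benjamini-Hochberg adjustment. A gene counted as called when its adjusted p was under 0.05 and its log2 fold change was beyond 1 in either direction. The study used the same thresholds. A sum cannot separate fewer expressing cells from less RNA per cell. At the end of treatment no member was called. In T vs UC, 42 of 6324 genes were called, 0.664%, of which 29 were higher and 13 lower in T. Of the 10 members, 7 passed the filter on low counts, 0 were called by edgeR or DESeq2, and 4 had positive and 3 negative fold changes, with a median of 0.05 against -0.0043 over all genes. Etv5, Id4 and Sohlh2 were too sparse to test. In simulated data for this comparison, 30 of 100 genes changed 2-fold were recovered, so a missing call does not show that a member was unchanged. The make-up of the sums differed: differentiating-like cells were 36.7% to 44.6% of the spermatogonia-like cells in T, 25% to 29.9% in UC and 16.7% to 31.9% in VC-T libraries, and preleptotene-like cells were 17.7% to 25.3%, 31.3% to 40% and 22.1% to 33.3%. Of the differentiating-like cells in T 1, T 2 and T 3, 90 of 107, 76 of 91 and 64 of 83 were in the weakly named sub-cluster. The differentiating-like and preleptotene-like shares were not tested. With the same number of cells of each sub-class drawn from every library, 3 members could be tested in T vs UC and none was called.

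**Figure D3:**
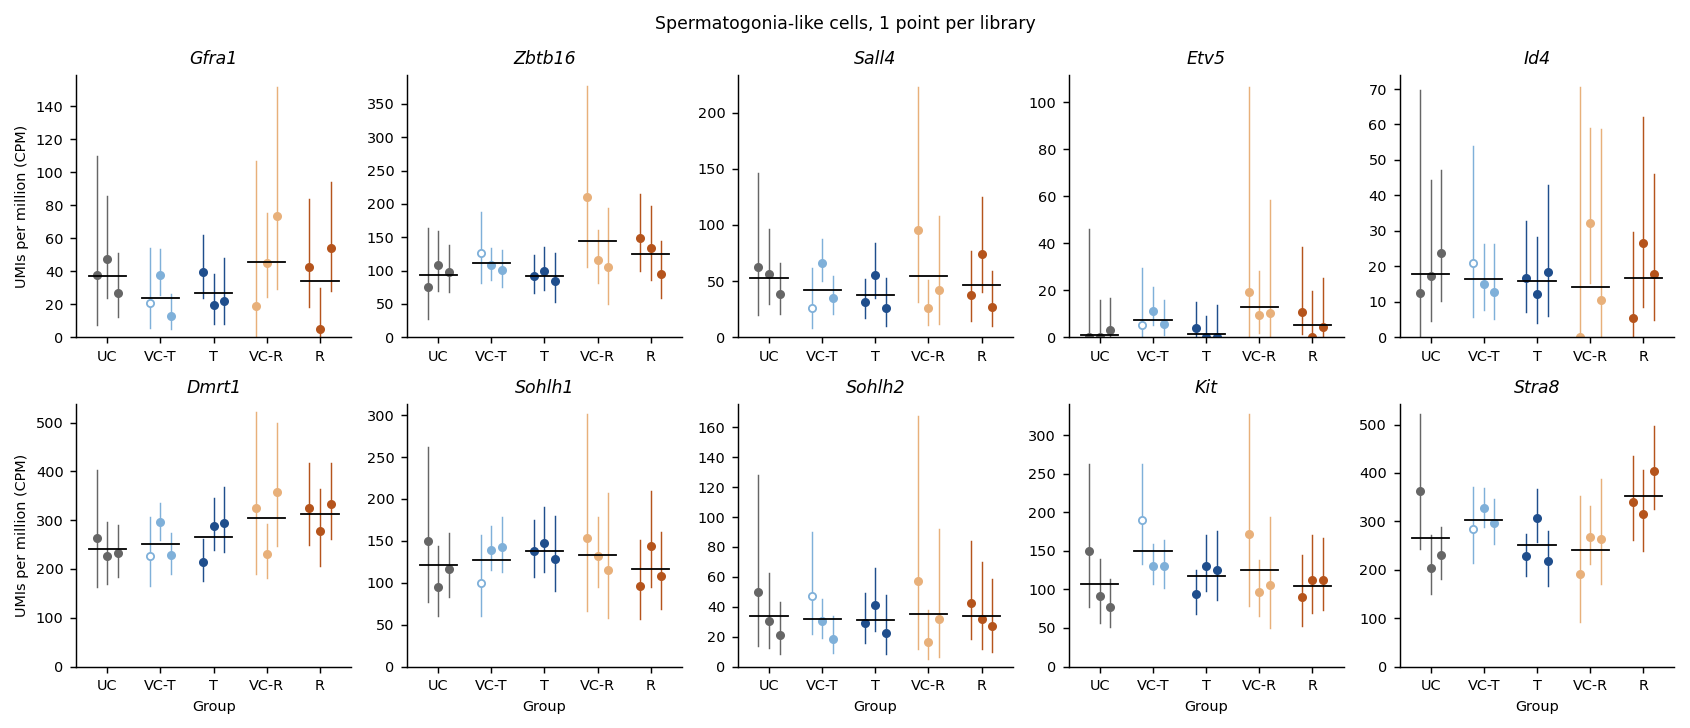
CPM of each member in spermatogonia-like cells, 1 point per library with its 95% Poisson interval, by group; black lines are group means over 3 libraries and the open point is the library labelled VC-T 1. The T and UC points overlap for every member, and the R points of Dmrt1 (277 to 333 CPM) lie above those of UC (226 to 263 CPM).

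Among the stem cell genes, Gfra1 was at 37.6, 47.7 and 26.9 CPM in the UC libraries and 39.7, 19.4 and 22.1 CPM in T, on 23 and 33 UMIs in all. The groups overlapped, with a log2 fold change of -0.36 (95% interval -1.21 to 0.49, adjusted p = 0.82), so a change of this size was not detectable at this depth. Zbtb16 had 75.1, 108 and 98.6 CPM in UC and 91.8, 99.4 and 84.7 CPM in T. The T libraries lay within the UC range, and the interval of the log2 fold change, -0.60 to 0.36, did not reach a 2-fold change in either direction (adjusted p = 0.91). Sall4 had 62.6, 56.4 and 38.9 CPM in UC and 31.3, 55.8 and 25.8 CPM in T. Its log2 fold change was -0.35 (interval -1.08 to 0.38, adjusted p = 0.80).

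Etv5 and Id4 could only be described. Etv5 had 0, 0 and 1 UMI in UC and 2, 0 and 0 in T, and Id4 had 1, 4 and 8 UMIs (12.5, 17.3 and 23.9 CPM) in UC and 8, 5 and 5 (16.7, 12.1 and 18.4 CPM) in T.

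Of the factors of the general programme, Dmrt1 and Sohlh1 were tested and neither was called. Dmrt1, the most precisely measured member, was at 263, 226 and 233 CPM in UC and 215, 288 and 295 CPM in T, a log2 fold change of 0.13 ± 0.17 (SE, adjusted p = 0.85). Sohlh1 was at 150.2, 95.4 and 117 CPM in UC and 138, 148 and 129 CPM in T, a log2 fold change of 0.26 ± 0.22 (adjusted p = 0.72). Sohlh2, not tested, had 50.1, 30.4 and 20.9 CPM in UC and 29.2, 41.2 and 22.1 CPM in T. In each case the groups overlapped.

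Kit and Stra8 overlapped between T and UC as well. Kit had 150.2, 91.1 and 77.7 CPM in UC and 93.9, 131 and 125 CPM in T, with a log2 fold change of 0.28 (interval -0.21 to 0.78, adjusted p = 0.74). Stra8 had 363, 204 and 230.2 CPM in UC and 227, 308 and 217 CPM in T, with a log2 fold change of 0.05 (interval -0.32 to 0.41, adjusted p = 0.96). Against VC-T 2 and 3, the vehicle libraries of the same age, 289 of 8419 genes were called (3.43%) and again none of the 8 members tested. Stra8 then had 327 and 297 CPM in the vehicle libraries, a log2 fold change of -0.39 ± 0.16 and an adjusted p of 0.20, and Kit, Sohlh1 and Dmrt1 also changed sign, to -0.26, -0.10 and -0.09. Vehicle itself was compared with UC: VC-T 2 and 3 differed in 8 of 6816 genes (0.117%), with no member called and Kit (0.54, adjusted p = 0.78) and Stra8 (0.42, adjusted p = 0.77) the furthest from 0.

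At 6 wk after withdrawal no member was called either. In R vs UC, 6 of 4732 genes were called, 0.127%, and 0 of the 6 members tested, by edgeR or DESeq2. Stra8 and Dmrt1 had an unadjusted p under 0.05. Stra8 was at 341, 314 and 405 CPM in R against 363, 204 and 230.2 CPM in UC, a log2 fold change of 0.54 ± 0.18 (adjusted p = 0.26). The lower 2 UC libraries were below every R library, and UC 1 was inside the R range. Dmrt1 was at 325, 277 and 333 CPM in R, above all UC libraries, with a log2 fold change of 0.40 ± 0.18 (adjusted p = 0.53).

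The other members were not called or were too sparse to test. Zbtb16 was at 149, 133 and 94.5 CPM in R, with R 1 and R 2 above every UC library, and a log2 fold change of 0.31 (interval -0.21 to 0.83, adjusted p = 0.81). Sall4 was at 37.3, 74.6 and 27.0 CPM (-0.11), beyond the UC range on both sides. The other tested members were Sohlh1 at 95.8, 144 and 108 CPM (0.01) and Kit at 90.5, 112 and 112 CPM (0.17). Gfra1 was not tested, and had 42.6, 5.33 and 54.0 CPM in R on 21 UMIs, Id4 5.32, 26.6 and 18.0 CPM, Sohlh2 42.6, 32.0 and 27.0 CPM and Etv5 2, 0 and 1 UMI. Against VC-R, 5 of 4471 genes were called (0.112%) and none of 5 members tested, Stra8 being at 0.45 ± 0.21 (adjusted p = 0.65). VC-R and UC differed in 1 of 3799 genes (0.0263%), no member. Cells of the R libraries were deeper, with a group median of 5266 UMIs per cell against 2151 in UC and 1426 in T, and that depth was not separated from the fold changes.

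**Figure D4:**
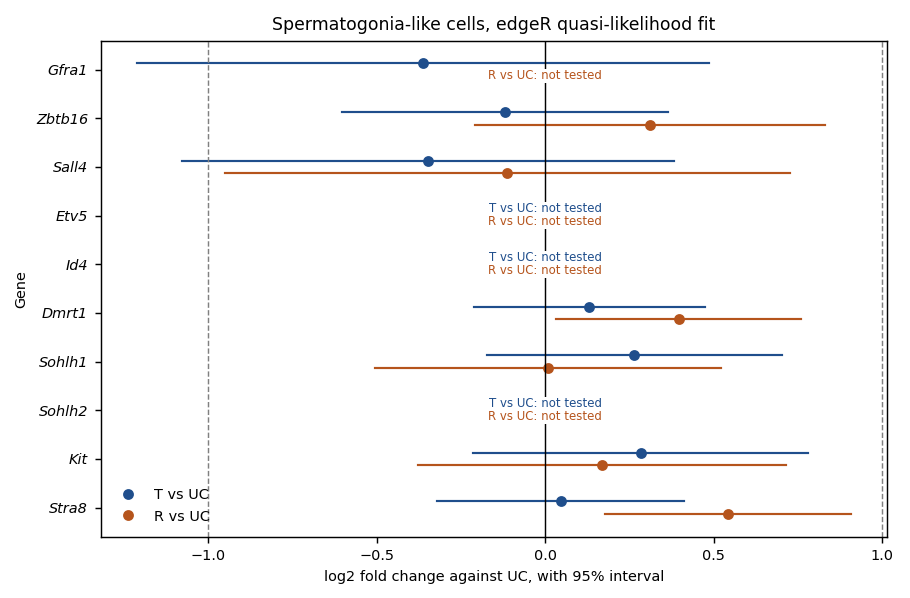
log2 fold change of each member against UC in spermatogonia-like cells, with its 95% interval, for T (blue) and R (brown); dashed lines mark a fold change of 1 on the log2 scale and members too sparse to test are named. All points lie within the dashed lines, and the R intervals of Stra8 (0.18 to 0.91) and Dmrt1 (0.03 to 0.76) do not include 0, while their adjusted p values are 0.26 and 0.53.

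The difference between the effect at the end of dosing and the effect after withdrawal, (T minus VC-T) minus (R minus VC-R), was tested in a single fit. It was called for 32 of 6989 genes, 0.458%, and for none of the 8 members tested. Stra8 was the nearest, with -0.38 for T minus VC-T, 0.44 for R minus VC-R and a difference of -0.82 ± 0.27 (adjusted p = 0.28).

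The share of undifferentiated-like cells did not move detectably with JQ1 against pooled controls. It was 18.0 ± 4.52% in T (SD, n = 3) and 18.8 ± 3.44% in UC, VC-T 2 and VC-T 3 (n = 5), a difference of -0.77 percentage points (exact two-sided permutation test over 56 rearrangements, p = 0.71). In R it was 26.4 ± 7.03% (n = 3) against 22.4 ± 6.43% in UC and VC-R (n = 6), a difference of 4.03 percentage points (exact permutation test over 84 rearrangements, p = 0.39). The 3 R values, 34.4%, 21.1% and 23.8%, rest on 11, 8 and 5 cells. The pooled controls were not alike. UC libraries had 15.6%, 20% and 15.0%, below every R library, and VC-R libraries had 29.6%, 25.5% and 28.6%, overlapping R. Neither control was tested alone.

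Other genes of the same pathways were read from a wider list. Of 22 genes of undifferentiated spermatogonia and of GDNF or FGF response, 5 could be tested in T vs UC (Pou3f1, Foxo1, Taf4b, Glis3 and Sox3) and none was called. All 5 fold changes were negative, with a median of -0.35 against -0.0043 over all genes and a smallest adjusted p of 0.45. Ret, the GDNF receptor kinase, was not tested, at 18.6 ± 5.02 CPM in T and 17.6 ± 15.3 CPM in UC. In R vs UC, 4 were tested, 2 in each direction, and none was called. Of 25 genes of differentiation, retinoic acid metabolism and meiotic entry, 15 were tested in each comparison and none was called.

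The smallest p values of that list in T vs UC belonged to the DM-domain factor gene Dmrtb1, to Tex101 and to the protease gene Prss50. Dmrtb1 was at 182 ± 23.3 CPM in T and 118 ± 8.54 CPM in UC, a log2 fold change of 0.60 (adjusted p = 0.16), and Tex101 and Prss50 had log2 fold changes of -0.56 and -0.86 (adjusted p = 0.17 and 0.28). In R vs UC they belonged to Meioc, needed for the meiotic programme, Crabp1, a retinoic acid binding protein, and Prss50, with log2 fold changes of 0.54, -0.43 and 0.53 (adjusted p = 0.53, 0.54 and 0.65). None of 10 niche genes of somatic cells could be tested in spermatogonia-like cells.

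After the spermatogonial stage, some members did differ between groups. In early spermatocyte-like cells, Stra8 was higher at the end of dosing and lower after withdrawal than in UC. The UC libraries had 485, 165 and 283 CPM, the T libraries 1061, 1534 and 415 CPM and the R libraries 79.8, 105 and 65.2 CPM. T and UC overlapped, since T 3 was below UC 1, and R lay below every UC library. In T vs UC, 166 of 1656 genes were called in this class (10.0%), and Stra8, the only member tested, had a log2 fold change of 1.71 ± 0.33 (adjusted p = 0.00091). Without T 1 it was 1.44 with an adjusted p of 0.082. In R vs UC, 95 of 6184 genes were called (1.54%), and of 3 members tested Stra8 was called, at -1.84 ± 0.24 (adjusted p = 1.0e-05), while Id4 (0.67, adjusted p = 0.18) and Sohlh2 (0.11) were not.

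The control group mattered for the R comparison. VC-R libraries had 73.6, 204 and 263 CPM of Stra8, and against them the log2 fold change in R was -1.09 with an adjusted p of 0.12. Against VC-T 2 and 3, at 368 and 365 CPM, the T value was 1.38 ± 0.35 (adjusted p = 0.0029), and VC-T 1 stood with T at 1335 CPM. In the fit of both times the difference between the effects was 2.16 ± 0.43 (adjusted p = 0.0025), where 40 of 7105 genes were called (0.563%).

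The T class was small and its make-up differed. The 3 T libraries had 23, 10 and 13 early spermatocyte-like cells and 74 Stra8 UMIs, against 40 to 121 cells in UC. Meiob, a gene of homologous recombination, was at 59.0 to 224 CPM in T against 348 to 483 CPM in UC, and Sycp3, of the synaptonemal complex, at 575 to 1212 against 1622 to 1904 CPM. Prdm9, which places recombination sites, was at 152 to 177 CPM in T and 76.4 to 137 CPM in UC. Kit was at 60.6 to 118 CPM in T and 10.0 to 11.8 CPM in UC, on 7 and 6 UMIs. Hormad1 and Sycp1 were also lower in T, at 636 to 944 against 1019 to 1393 CPM and 1534 to 2715 against 2906 to 3460 CPM. Gm960 was higher, at 212 to 295 against 69.9 to 84.4 CPM, and Dmc1 and Rad51ap2 overlapped between T and UC. Genes of this stage thus lay on both sides of UC beside Stra8, and their part in its values was not tested. R libraries were at 402 to 496 CPM for Meiob, overlapping UC, and 58.2 to 68.9 CPM for Prdm9, below every UC library. Dmc1 and Gm960 were also below UC in R, at 174 to 251 against 285 to 311 CPM and 42.1 to 65.0 against 69.9 to 84.4 CPM. Rad51ap2, Hormad1, Sycp1 and Sycp3 overlapped between R and UC. VC-R libraries overlapped R for Prdm9, Dmc1 and Gm960. The part of these differences in the R value of Stra8 was not tested.

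Sohlh1 differed in spermatid-like cells, where it was low but steady in the control libraries other than VC-T 1. VC-T 2 and 3 had 4.61 and 3.93 CPM and VC-R libraries 3.74, 4.29 and 3.95 CPM. VC-T 1, with 1 UMI in 2699 cells, had 0.145 CPM, within the T range. UC libraries had 4.75, 4.51 and 5.05 CPM and T libraries 0, 0.55 and 0.36 CPM, on 61 and 4 UMIs, so the groups were far apart. The log2 fold change was -4.48 ± 0.51 (adjusted p = 4.1e-06), in a comparison that called 2565 of 13141 genes (19.5%), and Sohlh1 was the only member of 5 tested to be called. R libraries had 4.19, 2.89 and 4.66 CPM and were not called (-0.36 ± 0.25, adjusted p = 0.36). With VC-T 1 left out, the difference between the effects at the end of dosing and after withdrawal was -4.26 ± 0.61 (adjusted p = 6.9e-06), where 3125 of 14834 genes were called (21.1%).

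The Sohlh1 UMIs of spermatids came from a single cluster. Of 303 UMIs, 281 lay in the cluster led by Cd59b and Hemgn, which held 33.9% to 40.0% of spermatid-like cells in UC, 0.878% to 3.92% in T, 0.926% in VC-T 1 and 9.94% to 23.7% in R libraries. Sohlh1 was at 10.5 CPM in those cells in UC and 10.1 CPM in R. The 102 T cells of the cluster had 0 Sohlh1 UMIs of 556343, which allows up to 5.39 CPM. VC-T 2 and R 3, with 13.4% and 9.94% of their spermatid-like cells in the cluster, had 4.61 and 4.66 CPM of Sohlh1 in the class. CPM weighs cells by their UMIs, and by UMIs the cluster was larger in these libraries. It held 3766338 of 7803175 class UMIs in VC-T 2 and 5986775 of 16721310 in R 3. In UC 1 it held 1385729 of 3158253, and in T 1, T 2 and T 3 451838 of 8549898, 80030 of 5496564 and 24475 of 2789488. The part of the cluster share in the T value was not tested.

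**Figure D5:**
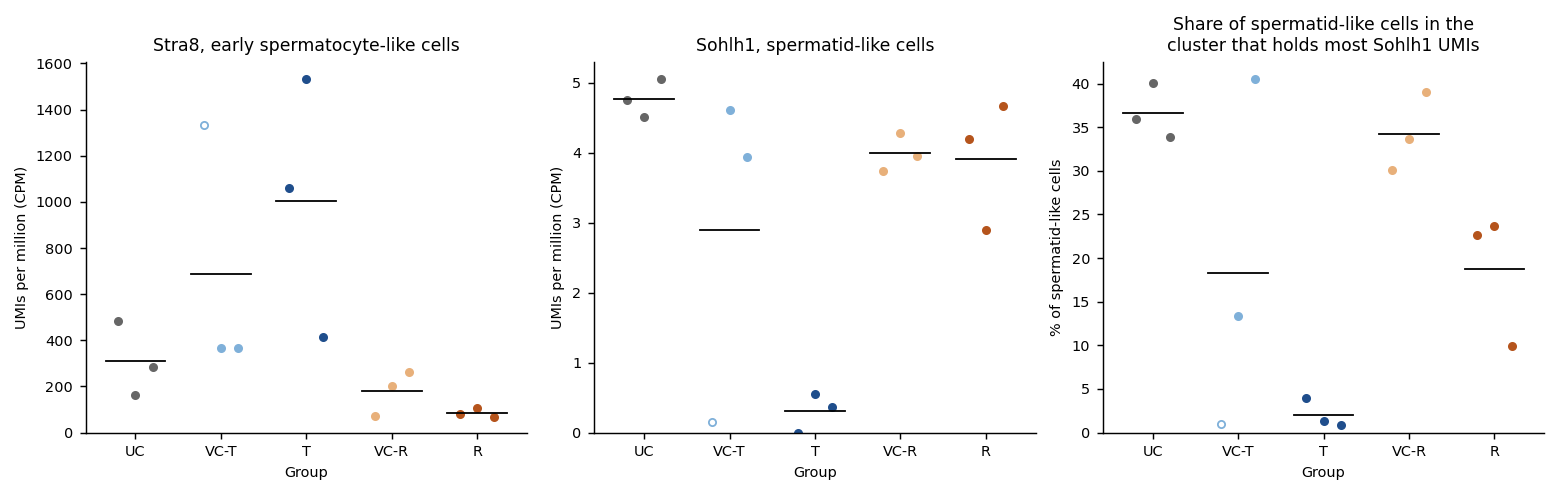
Stra8 in early spermatocyte-like cells and Sohlh1 in spermatid-like cells (CPM, 1 point per library), and the share of spermatid-like cells in the cluster that holds 281 of 303 spermatid Sohlh1 UMIs; black lines are means over 3 libraries and the open point is VC-T 1. Stra8 is at 415 to 1534 CPM in T and 65.2 to 105 CPM in R against 165 to 485 CPM in UC, and Sohlh1 and the cluster share are both near 0 in T and in VC-T 1.

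Gfra1 was higher in spermatid-like cells of both JQ1 groups than in UC, by less than the fold threshold. It had 6.33, 9.03 and 10.3 CPM in UC, 18.2, 13.3 and 17.2 CPM in T and 14.2, 12.9 and 15.4 CPM in R, and neither T nor R overlapped UC. The log2 fold changes were 0.59 ± 0.20 in T (adjusted p = 0.023) and 0.60 ± 0.17 in R (adjusted p = 0.020). With no fold threshold, 7098 of 13141 genes in T and 2318 of 13866 in R had an adjusted p under 0.05. Both thresholds, which Gfra1 did not pass, were passed by 2565 genes in T and 361 in R (19.5% and 2.60%). VC-T 1 stood with the T libraries at 20.5 CPM, and VC-R libraries were at 15.3, 9.77 and 9.03 CPM, overlapping R. The make-up of the class differed in R. The clusters led by 4933436I01Rik and Defb14 and by Chst9 and Agbl1 held 1443 and 1500 of 4890 spermatid-like cells in R but 171 and 96 of 2105 in UC, and Gfra1 was at 37.0 CPM in the Chst9-led cells of R. The direction was not the same in every cluster. In the Cd59b-led cluster Gfra1 was at 7.96 ± 1.46 CPM in R and 9.29 ± 1.36 CPM in UC, and in the Ssxb2-led cluster at 10.5 ± 1.81 CPM in R, 6.16 ± 3.39 CPM in UC and 11.4 ± 1.35 CPM in VC-R (n = 3 each). In the cluster led by 1700109G15Rik and Gip, picked after its values were seen, it was at 25.4 ± 5.47 CPM in T, 26.8 ± 4.33 CPM in R, 9.72 ± 4.76 CPM in UC and 9.62 ± 2.00 CPM in VC-R, with VC-T libraries at 26.6, 9.04 and 13.3 CPM. The part of the make-up in the fold changes was not tested.

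Id4 and Etv5 passed the adjusted p in T spermatid-like cells without reaching the fold threshold. In that comparison 7098 of 13141 genes had an adjusted p under 0.05 when no fold threshold was set. Id4 was at 14.9, 12.3 and 16.0 CPM in UC and 24.4, 20.9 and 26.5 CPM in T (0.41 ± 0.15, adjusted p = 0.035), with no overlap. In R it was at 14.1, 14.2 and 17.5 CPM (0.00). Etv5 was at 12.3, 14.8 and 11.0 CPM in UC and 12.2, 11.5 and 6.81 CPM in T (-0.53 ± 0.21, adjusted p = 0.048), and the groups overlapped. Pooled over libraries, Etv5 did not go the same way in every cluster. In the cluster led by 1700109G15Rik and Gip it was at 22.4 CPM in T and 18.9 CPM in UC. The Cd59b-led cluster had 19.8 and 16.8 CPM, and the cluster led by 4933436I01Rik and Defb14 10.3 and 21.2 CPM. The Cd59b-led cluster held 102 of 4079 spermatid-like cells in T and 762 of 2105 in UC. The part of this make-up in the fold changes was not tested. Kit was at -0.07 (adjusted p = 0.89).

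No member was called in the other germ cell classes. In late spermatocyte-like cells Gfra1 and Id4 were tested, and the called shares were 0.509% of 11799 genes in T vs UC and 0% of 12911 genes in R vs UC, where 1358 genes had an unadjusted p under 0.05 and DESeq2 also called 0. Id4 there had log2 fold changes of 0.07 and -0.18, with standard errors of 0.10 and 0.09. In spermatozoa-like cells, which T lacked, 81 of 11832 genes were called in R vs UC (0.685%) and none of 5 members.

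In Sertoli-like cells Dmrt1 was lower in R than in UC, but the call depended on the fit and the class was mixed. UC libraries had 26.6, 32.9 and 65.6 CPM on 25 UMIs and R libraries 21.0, 18.3 and 9.33 CPM, with no overlap. The log2 fold change was -1.73 ± 0.50 (adjusted p = 0.044), where 894 of 7210 genes were called (12.4%). It lost its call with DESeq2 (adjusted p = 0.070), against VC-R (0.21), without UC 2 (0.12) and without UC 3 (-1.0, 0.64). Of the R cells, 96.2% to 99.4% were in the cluster led by Defb45 and Rhox8, against 42.4% to 93.1% in UC. Within that cluster Dmrt1 was at 14.0 ± 5.35 CPM in R and 14.0 ± 13.7 CPM in UC (n = 3 each), and within the Clu-led cluster at 44.7 ± 9.19 CPM in R, on 14 UMIs, and 60.3 and 78.4 CPM in UC 2 and UC 3, while UC 1 had 2 cells of it with 1 UMI. Etv5 was not called in this class (-1.10, adjusted p = 0.16). T vs UC in Sertoli-like cells and both comparisons in Leydig-like cells were not tested, since at least 1 library had under 10 cells.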

How the data were processed

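The members, the marker lists and the wider gene lists were chosen with earlier results of these data known. The authors made 15 Chromium 3′ v3 libraries from DBA/2J testes and aligned them to mm10 with STAR in Cell Ranger, version 3.0.0 per the labels and 7.0.0 per the file headers; whether intronic reads were counted is not given in the sources used here. Each deposited matrix holds UMI counts by gene and cell barcode, not normalized, from before the authors' removal of free RNA, doublets and low-quality cells. Here the cells with the 5.4% highest simulated-doublet scores per library were removed, and the rest were clustered (2000 variable genes, 30 components, 20 neighbours, Leiden resolution 1.2, leidenalg 0.10.2, Python 3.11.15). Counts were summed per class and library where it held at least 10 cells, filtered with filterByExpr, scaled by TMM and tested with edgeR 4.0.16 (R 4.3.3); DESeq2 1.42.0 was an alternative. The scripts were tested on simulated data. Of 100 genes changed 4-fold, 88 were recovered in T vs UC and 88 in R vs UC. Of 100 genes changed 2-fold, 30 and 39 were recovered. A member without a call is therefore not shown to be unchanged. All members are named, with the 3 wider-list genes of smallest p in each comparison, the 3 genes most correlated with each member, and contamination markers; 1 correlated gene is not reported here. Totals per library were 9673587 to 98724984 UMIs, and spermatogonia-like sums 52284 to 795933 UMIs, which sets the precision of each value; intervals cover counting error only. Each library is 1 mouse, so p-values measure spread between mice. Promoters came from RefSeq tables (GRCm38.p6) and gene positions from GENCODE (GRCm38), the assembly of mm10.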

Additional observations from a re-analysis of the deposited data

Results flagged for a closer look

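In 3 cases a member's JQ1 effect differed between the end of dosing and 6 wk after withdrawal by a test of the difference itself (edgeR, (T minus VC-T) minus (R minus VC-R), without VC-T 1). This contrast was added for these cell classes after the data were seen. In early spermatocyte-like cells the difference for Stra8 was 2.16 on the log2 scale (SE 0.43, adjusted p = 0.0025), made of 1.06 for T minus VC-T and -1.10 for R minus VC-R, and the T libraries had only 10 to 23 such cells. In spermatid-like cells the difference for Sohlh1 was -4.26 (SE 0.61, adjusted p = 6.9e-06), made of -4.38 and -0.12. Also in spermatid-like cells the difference for Id4 was 0.60 (SE 0.21, adjusted p = 0.028), made of 0.39 and -0.21, below the fold threshold. In that class 3125 of 14834 genes passed both thresholds, 21.1%, and Id4 is not among them. The number that passed the adjusted p alone is not given here. The make-up of both classes differed between T and the controls, and its part in these values was not tested.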

How the results depend on the processing

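No member was called in spermatogonia-like cells under any of 22 settings for T vs UC (141 values, smallest adjusted p 0.20) or 21 for R vs UC (113 values, smallest adjusted p 0.20), but the sign was not stable: 19 and 16 of those values had the other sign. The number of genes called in T vs UC, 42, was 4 with DESeq2, 289 against VC-T 2 and 3, 6 against all 3 VC-T libraries, 165 with UC and vehicle pooled, 7 in undifferentiated-like cells alone, 26 in differentiating-like and preleptotene-like cells alone, 12 in stage-matched cells and 403 with the sub-clusters of later germ cell genes kept in. The 6 genes in R vs UC became 0 with DESeq2, 13 without a filter, 0 in stage-matched cells and 28 with those sub-clusters kept in. Replicate numbers did not pair the mice: deviations of same-numbered libraries correlated at -0.03 to 0.12. With a replicate block, 19 genes were called in T vs UC, 5 in R vs UC, and Stra8 in T vs UC was -0.0016; no member changed its call.

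In other classes the counts were 60 against vehicle in early spermatocyte-like cells for T; 16 with DESeq2 and 0 against vehicle for R. They were 286 and 293 in late spermatocyte-like cells for T, 202 and 200 in spermatid-like cells for R, and 12 and 0 in spermatozoa-like cells for R, with DESeq2 and against vehicle. Sertoli-like cells had 0 against VC-R. The difference between the effects gave 16 genes with VC-T 1 included and 12 with DESeq2.

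Signs reversed as follows. In T vs UC spermatogonia-like cells against VC-T 2 and 3, Dmrt1 was -0.090, Sohlh1 -0.099, Kit -0.26 and Stra8 -0.39; against all VC-T, -0.019, -0.011, -0.36 and -0.34. With controls pooled, Dmrt1 was -0.00051, Kit -0.074 and Stra8 -0.22; stage-matched, Dmrt1 was -0.00094 and Stra8 -0.42; with later sub-clusters kept in, Kit was -0.0028 and Stra8 -0.070; with DESeq2, Stra8 was -0.0063. In R vs UC against VC-R, Zbtb16 was -0.048, Sohlh1 -0.21 and Kit -0.069, and with later sub-clusters kept in -0.034, -0.12 and -0.071. Sohlh1 was also -0.015 with DESeq2, -0.050 without a filter, -0.096 with controls pooled and -0.013 in a fit of all groups, and Sall4 was 0.0013 with controls pooled. Against vehicle, Id4 was -0.014 and Sohlh2 -0.042 in early spermatocyte-like cells (R), Id4 -0.068 in late spermatocyte-like cells (T), Kit 0.026 in spermatid-like cells (T), Id4 -0.20 in spermatid-like (R) and 0.15 in Sertoli-like cells (R), and Kit -0.22 in spermatozoa-like cells (R). With DESeq2, Id4 was -0.017 in spermatid-like and Kit -0.033 in spermatozoa-like cells (R). The cause was not tested.

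Leaving out each replicate in turn gave these ranges. Genes called were 16 to 64 (T) and 4 to 12 (R) in spermatogonia-like cells, 41 to 243 and 42 to 115 in early spermatocyte-like cells, 0 to 233 and 0 to 86 in late spermatocyte-like cells, 169 to 577 in spermatid-like cells (R), and 0 to 4051 in Sertoli-like cells (R). The undifferentiated-like share differed by -2.43 to 1.8 percentage points in T and by 0.05 to 6.71 in R. Fold changes that crossed 0 were Stra8 in T (-0.13 to 0.17) and Sall4 (-0.64 to 0.19), Sohlh1 (-0.18 to 0.11) and Kit (-0.043 to 0.30) in R spermatogonia-like cells. In later classes they were Sohlh2 in early spermatocyte-like cells (R, -0.24 to 0.32), Gfra1 in late spermatocyte-like cells (R, -0.22 to 0.75), Kit (T, -0.28 to 0.044) and Id4 (R, -0.11 to 0.093) in spermatid-like cells, Gfra1 (-0.38 to 0.11) and Kit (-0.24 to 0.27) in spermatozoa-like cells (R) and Id4 in Sertoli-like cells (R, -0.41 to 0.26). Stra8 in early spermatocyte-like cells stayed at 1.38 to 2.03 in T and -2.12 to -1.57 in R, and Sohlh1 in T spermatid-like cells at -5.64 to -3.53. Depth limits Etv5, Id4 and Sohlh2 in spermatogonia-like cells most, with 1 to 37 UMIs per group.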
